A study of Homo sapiens with 9 samples.

Results

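The 32 genes described here encode enzymes that place acetyl groups on histones, enzymes that remove them, and a pair of the BET proteins that read them. They were chosen by name, and each matched 1 Ensembl gene ID among the 60708 rows of the count table. The cells were MDA-MB-231, an established human line of triple-negative breast cancer, which was sampled in 3 groups of 3 libraries. The first group had been exposed for 16 h to 10 nM pladienolide B (PdB), a natural product that targets the splicing factor SF3B1 and so hinders recognition of the intron branch point. The second had the same exposure followed by 24 h of recovery, and the third was given the vehicle DMSO. The labels name 1 cell line throughout and no genetic change, and they give no duration for DMSO, to which both other groups were compared. They do not say whether replicates were separate cultures, so p-values measure the spread between these libraries, which may be technical. The question of the design was which genes changed during the block of splicing and which still differed 24 h later.

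Acetylation of lysines in histone tails loosens the contact of histones with DNA and creates binding sites for bromodomain proteins. Acetyltransferases (p300 and CBP, the GNAT and the MYST families) work mostly as catalytic subunits of large complexes, and the p160 coactivators recruit them to nuclear receptors. Deacetylases fall into zinc-dependent classes, which also act within corepressor complexes or on cytoplasmic proteins such as tubulin, and the NAD-dependent sirtuins. BET proteins bind acetylated histones through paired bromodomains and help transcription to start and to elongate.

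Total counts per library lay between 56389689 and 67047079, and libraries of the same group correlated with r of at least 0.975 across genes, against at most 0.945 between groups. Levels are given as CPM, read counts scaled to library size with TMM factors. Changes are log2 ratios ± SE, and "rose" and "fell" are used only of genes with an adjusted p under 0.05 in edgeR's quasi-likelihood test over 20812 genes. The 8 markers of MDA-MB-231 listed for this purpose, among them VIM and CD44, were all expressed, but not at a steady level. Their summed level was 5755 to 5865 CPM in PdB, 3568 to 3665 CPM at recovery and 7708 to 7787 CPM in DMSO. ESR1 had no count in any library and PGR averaged at most 0.025 CPM. ERBB2, which encodes HER2, was expressed, with 51.7 ± 2.3 CPM in PdB, 73.7 ± 0.96 CPM at recovery and 105.8 ± 3.7 CPM in DMSO, and fell under PdB (-1.03 ± 0.054, adjusted p = 5.1e-12). PTPRC, the general leukocyte marker, averaged at most 0.40 CPM, CD3E at most 0.011 CPM, and the summed level of 7 leukocyte markers (123.6 to 139.6 CPM in PdB, 83.2 to 87.3 CPM at recovery and 97.3 to 105.9 CPM in DMSO) was almost wholly CD68. HBB had no count in any library. The summed level of 8 luminal markers was 1012 to 1208 CPM in PdB, 1377 to 1593 CPM at recovery and 1327 to 1566 CPM in DMSO, led by the keratin KRT8. The part of these marker levels in the results was not tested.

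All 32 genes passed the filter on low counts. Under PdB 29 of them, or 90.6%, were called against DMSO, where 70.1% of all genes tested were. Of the 32, 12 rose and 17 fell, or 37.5% and 53.1%, against 32% and 38.2% of all genes tested. By at least 2-fold, 3 of the 32 rose, a smaller share than the 17.4% of all genes tested, and 8 fell, a share near the 22.2% of all genes. The median log2 change of the 32 was -0.28, and that of all genes -0.11. At recovery 26 were called, or 81.2% against 61.2% of all genes, with 18 above DMSO and 8 below. The 18 are 56.2% of the genes, where 30.7% of all genes were above DMSO and 30.5% below, and the medians were 0.30 for the 32 and 0.026 for all genes. By at least 2-fold 3 of the 32 were above and 3 below, both smaller shares than the 13.6% and 11.8% of all genes. Between recovery and PdB 27 were called, or 84.4% against 66.1% of all genes. Of these 20 rose and 7 fell, or 62.5% and 21.9% of the 32, against 34.6% and 31.5% of all genes, with medians of 0.42 and 0.062. By at least 2-fold 9 of the 32 rose, a larger share than the 19.7% of all genes, and 2 fell, a smaller share than 13.2%. PdB and DMSO libraries did not overlap for 29 of the 32 genes, against 72.5% of all genes. For recovery and DMSO this was again 29, against 70.4%, and for recovery and PdB it was 27, against 70.5%. Of the 116 partner genes described further on, 89.7% were called under PdB, 76.7% at recovery and 85.3% between recovery and PdB. The shares of the 32 genes lay closer to these than to those of all genes. The shares of all genes were not matched for read depth. The 32 genes averaged from 268 (SIRT5) to 40437 counts (BRD2), while genes with few counts, such as FOXA1 with 13.1, were among those tested. The part of depth in the shares was not tested. The comparisons share libraries and are therefore not independent of each other. In these bulk samples fewer expressing cells and less RNA per cell cannot be told apart.

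**Figure D1:**
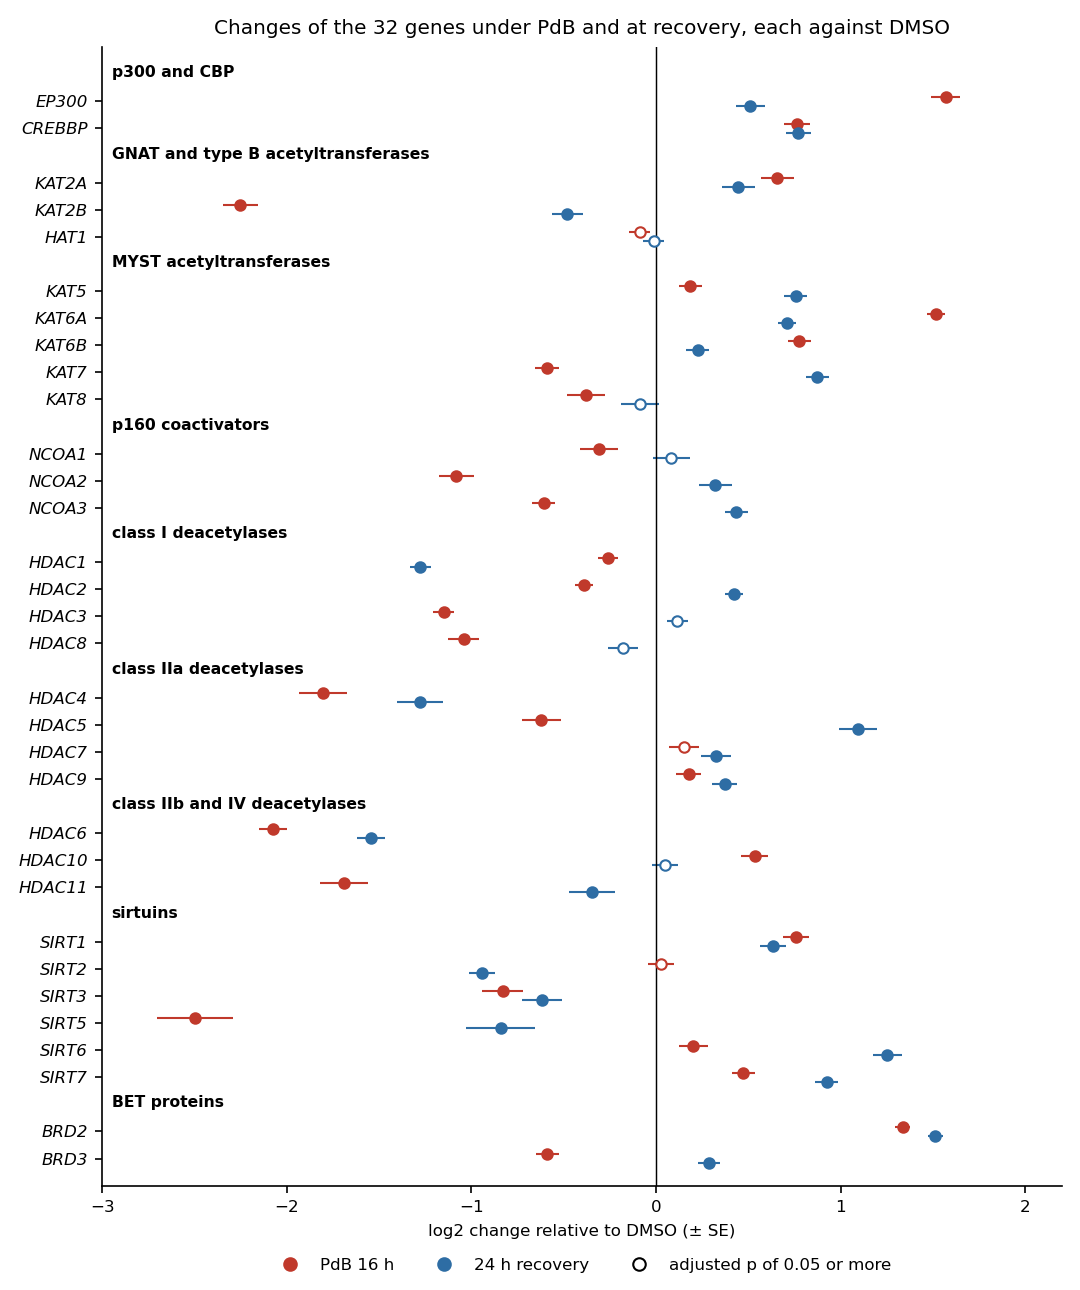
Log2 change (± SE) of each of the 32 genes, grouped by role, for PdB against DMSO (red) and recovery against DMSO (blue). Open circles mark changes with an adjusted p of 0.05 or more. EP300 lies farthest to the right under PdB at 1.57 and BRD2 at recovery at 1.51, while SIRT5 lies farthest to the left under PdB at -2.50 and HDAC6 at recovery at -1.54.

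Acetyltransferases and p160 coactivators divided evenly under PdB and lay mostly above DMSO afterwards. Of these 13 genes, 6 rose and 6 fell under PdB, and at recovery 9 were higher than in DMSO and 1 was lower. The shares under PdB were 46.2% each, and at recovery 69.2% and 7.69%, to be read against the shares of all genes given above. Summed per kilobase of exon, their level was 128.3 ± 2.4 CPM per kb in PdB, 132.0 ± 1.2 at recovery and 95.8 ± 2.0 in DMSO (SD, n = 3 libraries each), without overlap of either group with DMSO. The same sum over the 17 deacetylases was 100.2 ± 2.3 in PdB, 121.8 ± 1.8 at recovery and 116.5 ± 1.1 in DMSO, again without overlap of either group with DMSO. The deacetylase total joins classes that differed. Class I had 38.95 in PdB, 43.6 at recovery and 55.4 in DMSO, class IIa had 14.3, 20.2 and 15.6, and the sirtuins had 38.1, 49.1 and 31.7. At recovery class I thus lay below DMSO and the sirtuins above. These sums weigh each gene by its abundance and were not tested. KAT2A and KAT5, whose values are uncertain for reasons given below, weigh heavily in the first sum. Per kb, KAT2A had 38.5 CPM in PdB, 33.3 at recovery and 24.4 in DMSO, and KAT5 had 16.4, 24.4 and 14.4.

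EP300, which encodes the acetyltransferase p300, had the largest rise of the 32 genes under PdB. EP300 (ENSG00000100393.14, chromosome 22, 41091786 to 41180079, coordinates here and further on from GRCh38 with GENCODE 29) had 255.9, 246.2 and 327.1 CPM in the PdB libraries, 132.8, 132.1 and 132.9 CPM at recovery, and 98.09, 89.95 and 91.24 CPM in DMSO. The groups did not overlap, and the PdB libraries spread most. The change under PdB was 1.57 ± 0.080 (2.97-fold, adjusted p = 3.1e-12), and at recovery EP300 was still 0.51 ± 0.079 above DMSO (adjusted p = 1.7e-05). Its paralogue CREBBP, which encodes CBP (ENSG00000005339.15, chromosome 16, 3725054 to 3880726), had 183.0, 164.7 and 211.4 CPM in PdB, 183.7, 190.0 and 188.0 CPM at recovery, and 115.2, 106.5 and 107.4 CPM in DMSO. CREBBP rose by 0.76 ± 0.069 under PdB (adjusted p = 1.2e-08) and by 0.77 ± 0.069 at recovery (adjusted p = 1.6e-08). Its recovery and PdB libraries overlapped, with a difference of 0.0070 ± 0.069 (adjusted p = 0.94) whose sign depended on the scaling (0.27 with library totals, adjusted p = 0.0046). Both genes have 30 introns in their longest annotated transcript.

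The GNAT pair KAT2A and KAT2B, alternative catalytic subunits of the SAGA and ATAC complexes, moved apart. KAT2A had 156.2, 163.0 and 116.5 CPM in PdB, 127.5, 132.4 and 116.2 CPM at recovery, and 96.3, 91.2 and 88.6 CPM in DMSO. KAT2A rose by 0.66 ± 0.091 under PdB (adjusted p = 3.3e-06) and stayed 0.45 ± 0.091 above DMSO at recovery (adjusted p = 0.00031). Its difference between recovery and PdB (-0.21 ± 0.090, adjusted p = 0.046) came with overlapping libraries. That call was lost with only the 6 libraries compared (adjusted p = 0.078) and when any 1 library other than PdB replicate 3 was left out (adjusted p from 0.054 to 0.28), without PdB replicate 3 the change was -0.35, and with library totals it was 0.059. KAT2B (ENSG00000114166.8, chromosome 3, 20040023 to 20154404) had 5.36, 5.60 and 5.61 CPM in PdB, 17.8, 18.5 and 20.3 CPM at recovery, and 28.0, 25.4 and 25.6 CPM in DMSO. Its level in PdB was 4.77-fold lower than in DMSO (log2 change -2.25 ± 0.094, adjusted p = 1.8e-13), and it was still -0.48 ± 0.086 from DMSO at recovery (adjusted p = 8.6e-05). HAT1, which acetylates newly made histone H4 before it is deposited, was not called in any of the 3 comparisons with TMM scaling, with 66.7 ± 0.84 CPM in PdB, 70.3 ± 2.7 CPM at recovery and 70.9 ± 3.4 CPM in DMSO. By library totals HAT1 was called under PdB (-0.28, adjusted p = 0.00021) and between recovery and PdB (0.34, adjusted p = 3.3e-05). Exons of KAT2A share 10.8% of their bases with another annotated gene on the same strand, and that gene has 14540 counts on average against 7402 for KAT2A, so its values are uncertain.

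Among the 5 MYST enzymes, 3 rose and 2 fell under PdB, and at recovery 4 were above DMSO. The shares of all genes were 32% up and 38.2% down under PdB, and 30.7% above DMSO at recovery. KAT6A, the catalytic subunit of the MOZ complex (ENSG00000083168.11, chromosome 8, 41929479 to 42052026), had 261.7, 276.5 and 277.0 CPM in PdB, 151.0, 157.3 and 157.7 CPM at recovery, and 98.1, 96.1 and 90.9 CPM in DMSO. The 3 groups were fully separated in that order, with a log2 change of 1.52 ± 0.049 under PdB (adjusted p = 6.0e-15) and 0.71 ± 0.049 at recovery (adjusted p = 4.1e-10). Its paralogue KAT6B changed the same way and less, by 0.78 ± 0.064 under PdB and 0.23 ± 0.064 at recovery, with 63.7 ± 1.6 CPM in PdB, 43.5 ± 2.3 CPM at recovery and 37.2 ± 2.0 CPM in DMSO. KAT7 (HBO1), whose complex acetylates histones and takes part in the licensing of replication origins, went to opposite sides of DMSO. KAT7 had 50.6, 42.6 and 45.8 CPM in PdB, 133.9, 126.8 and 123.0 CPM at recovery, and 72.6, 67.9 and 68.9 CPM in DMSO. It fell by 0.59 ± 0.064 on the log2 scale under PdB (adjusted p = 1.4e-07) and was 0.87 ± 0.063 above DMSO at recovery (adjusted p = 8.2e-10), a difference of 1.47 ± 0.064 between recovery and PdB.

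KAT5 (TIP60), the enzyme of the NuA4 complex that also acts at DNA breaks, was mainly higher at recovery. Its level was 61.2 ± 2.9 CPM in PdB, 91.0 ± 4.9 CPM at recovery and 53.8 ± 3.2 CPM in DMSO, changes of 0.19 ± 0.063 under PdB (adjusted p = 0.014) and 0.76 ± 0.062 at recovery (adjusted p = 5.2e-09). The change under PdB was -0.013 with library totals and 0.34 with upper-quartile factors, and it lost its call without DMSO replicate 1 (0.14), DMSO replicate 2, PdB replicate 1 or PdB replicate 2 (0.16 each). Exons of KAT5 share 38.6% of their bases with RNASEH2C on the opposite strand, and the sources used here do not say whether counting used strand, so its values are uncertain. KAT8, which acetylates histone H4 in the MSL and NSL complexes, was low throughout, with 12.3 ± 1.4 CPM in PdB, 15.1 ± 1.1 CPM at recovery and 16.0 ± 1.1 CPM in DMSO. It fell under PdB (-0.38 ± 0.10, adjusted p = 0.0034), a call that ended with upper-quartile factors (adjusted p = 0.056), and at recovery its change from DMSO was -0.086 ± 0.10 (adjusted p = 0.49). Its difference of 0.29 ± 0.10 between recovery and PdB (adjusted p = 0.020) lost the call with upper-quartile scaling (0.22), with the filter at a mean of 50 counts (0.21), and without PdB replicate 3 (0.20), recovery replicate 2 (0.29) or recovery replicate 3 (0.26).

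All 3 p160 coactivators, which bridge nuclear receptors to p300 and CBP, fell under PdB. A fall was called for 38.2% of all genes. NCOA2 fell most, with 8.64, 10.3 and 10.3 CPM in PdB, 24.3, 26.6 and 26.3 CPM at recovery, and 21.8, 19.6 and 20.5 CPM in DMSO. Its libraries separated completely, at -1.08 ± 0.093 under PdB (adjusted p = 6.0e-09) and 0.32 ± 0.089 at recovery (adjusted p = 0.0045). NCOA3, a gene amplified in some breast cancers, had 38.2, 36.7 and 38.5 CPM in PdB, 73.6, 77.3 and 83.0 CPM at recovery, and 61.6, 55.4 and 55.9 CPM in DMSO. It changed by -0.61 ± 0.064 under PdB (adjusted p = 8.9e-08) and by 0.44 ± 0.063 at recovery (adjusted p = 7.1e-06), so that both genes crossed from below to above DMSO. NCOA1 had 29.8, 20.5 and 27.5 CPM in PdB, 33.5, 33.3 and 35.3 CPM at recovery, and 32.9, 31.8 and 31.8 CPM in DMSO. Its fall under PdB (-0.31 ± 0.10, adjusted p = 0.011) rested on PdB replicate 2, without which it was -0.17 (adjusted p = 0.057), and it was not called with DESeq2, RLE or upper-quartile scaling, the filter at a mean of 50 counts, or only the 6 libraries compared (adjusted p from 0.066 to 0.17). Its difference between recovery and PdB was 0.39 ± 0.10, and 0.25 without PdB replicate 2.

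**Figure D2:**
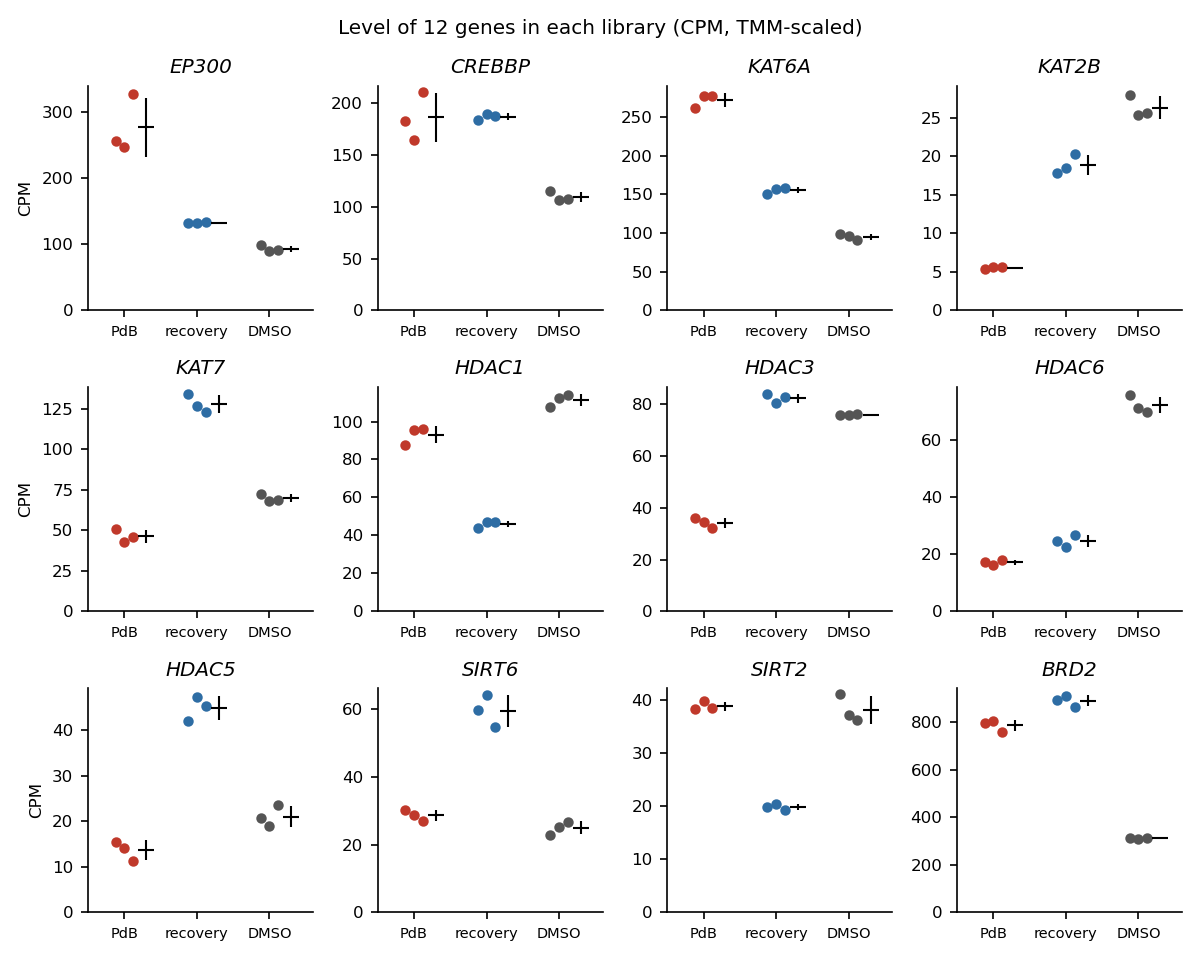
Level of 12 of the genes in each library (CPM, linear axis from 0), with PdB on the left, recovery in the middle and DMSO on the right. Bars beside the points give mean ± SD of 3 libraries. EP300, KAT6A and KAT2B lie nearer to DMSO at recovery than under PdB, KAT7 and HDAC5 cross from below to above DMSO, and HDAC1 and SIRT2 are lowest at recovery.

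Of the 17 deacetylases, 5 rose and 10 fell under PdB, or 29.4% and 58.8%, where 32% of all genes rose and 38.2% fell. By at least 2-fold 6 of the 17 fell, where 22.2% of all genes did. At recovery 7 were above DMSO and 7 below, 41.2% each, against 30.7% and 30.5%. All 4 class I enzymes fell under PdB, and they then took separate courses. HDAC1, a catalytic subunit of the SIN3, NuRD and CoREST corepressors (ENSG00000116478.12, chromosome 1, 32292086 to 32333635), had 87.8, 95.7 and 95.9 CPM in PdB, 44.2, 46.9 and 46.9 CPM at recovery, and 107.8, 112.6 and 113.9 CPM in DMSO. Its fall under PdB was small (-0.26 ± 0.055, adjusted p = 0.00037), it depended on the scaling (-0.46 by library totals and -0.11 with upper-quartile scaling, adjusted p = 0.086), and most of the loss lay at recovery, where HDAC1 was 2.42-fold lower than in DMSO (-1.28 ± 0.056, adjusted p = 1.2e-12). HDAC2, its partner in the same complexes, did the opposite at recovery, with 119.0, 119.7 and 113.3 CPM in PdB, 210.7, 207.2 and 201.0 CPM at recovery, and 148.3, 160.6 and 152.9 CPM in DMSO. It fell by 0.39 ± 0.049 on the log2 scale under PdB (adjusted p = 8.4e-07), or -0.24 with upper-quartile scaling and -0.59 by library totals, and was 0.42 ± 0.048 above DMSO at recovery (adjusted p = 4.0e-07).

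HDAC3 and HDAC8 fell under PdB and were close to DMSO at recovery. HDAC3, the deacetylase of the NCoR corepressors, had 35.9, 34.6 and 32.05 CPM in PdB, 83.7, 80.4 and 82.8 CPM at recovery, and 75.7, 75.8 and 76.3 CPM in DMSO. It was 2.22-fold lower in PdB than in DMSO (-1.15 ± 0.057, adjusted p = 2.2e-12), and its recovery libraries all lay above DMSO by a margin that missed the threshold (0.12 ± 0.055, adjusted p = 0.078). That difference passed with DESeq2, RLE, upper-quartile or library-total scaling, with only the 6 libraries compared, with the filter at a mean of 50 counts, and without PdB replicate 3 (0.12, adjusted p = 0.047). HDAC8, which deacetylates the cohesin subunit SMC3, had 10.9 ± 0.73 CPM in PdB, 19.8 ± 0.53 CPM at recovery and 22.4 ± 0.18 CPM in DMSO, with changes of -1.04 ± 0.085 under PdB (adjusted p = 2.5e-09) and -0.18 ± 0.082 at recovery (adjusted p = 0.069, and 0.037 with only the 6 libraries compared). HDAC8 shares 5.19% of its exon bases with another gene on the same strand, which adds some uncertainty.

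The class IIa enzymes, which shuttle between nucleus and cytoplasm and bind MEF2 factors, showed no common course. HDAC4 had 6.53, 8.95 and 9.99 CPM in PdB, 13.4, 10.8 and 12.5 CPM at recovery, and 31.3, 27.5 and 30.2 CPM in DMSO. It was 3.49-fold lower in PdB (-1.81 ± 0.13, adjusted p = 4.0e-10) and 2.42-fold lower at recovery (-1.28 ± 0.13, adjusted p = 5.5e-08) than in DMSO. HDAC5 had 15.5, 14.2 and 11.3 CPM in PdB, 42.1, 47.2 and 45.2 CPM at recovery, and 20.6, 18.9 and 23.5 CPM in DMSO. It fell under PdB (-0.62 ± 0.11, adjusted p = 4.2e-05) and was 2.13-fold above DMSO at recovery (1.09 ± 0.10, adjusted p = 3.3e-08), so its distance between recovery and PdB was 1.71 ± 0.11. HDAC7 was 0.32 ± 0.080 above DMSO at recovery (adjusted p = 0.0018), with 98.7 ± 14.5 CPM in PdB, 111.2 ± 4.8 CPM at recovery and 88.9 ± 4.3 CPM in DMSO. Its change under PdB was 0.15 ± 0.081 (adjusted p = 0.10), and PdB replicate 3, at 82.1 CPM, was the lowest of all 9 libraries. Without that library the change was 0.27 (adjusted p = 0.00026). It was also called with DESeq2, RLE and upper-quartile scaling, the filter at a mean of 50 counts, only the 6 libraries compared and the replicate block (0.14 to 0.30, adjusted p from 0.0025 to 0.029), and it was -0.048 by library totals (adjusted p = 0.58). Its difference between recovery and PdB (0.17 ± 0.080, adjusted p = 0.069) passed with the replicate number as a block (adjusted p = 0.0085), by library totals (0.44), with no filter (0.19), and without PdB replicate 1 (0.25) or PdB replicate 2 (0.23). HDAC9 changed little, with 31.9 ± 0.90 CPM in PdB, 36.5 ± 0.67 CPM at recovery and 28.2 ± 1.2 CPM in DMSO. Its rise of 0.37 ± 0.066 at recovery (adjusted p = 8.4e-05) kept its call in all alternatives run, but that of 0.18 ± 0.067 under PdB (adjusted p = 0.025) was -0.020 with library totals and was lost with no filter (adjusted p = 0.15) and without DMSO replicate 1 (0.16), DMSO replicate 3 (0.14), PdB replicate 2 (0.15) or recovery replicate 2 (0.17). Its difference of 0.20 ± 0.066 between recovery and PdB (adjusted p = 0.015) lost its call with DESeq2, RLE or upper-quartile scaling and with the filter at a mean of 50 counts (adjusted p from 0.052 to 0.13).

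HDAC6, the cytoplasmic class IIb enzyme that deacetylates tubulin, lay farthest below DMSO of the 32 genes at recovery. HDAC6 (ENSG00000094631.21, chromosome X, 48801377 to 48824982) had 17.1, 16.3 and 17.9 CPM in PdB, 24.8, 22.6 and 26.9 CPM at recovery, and 75.5, 71.2 and 69.9 CPM in DMSO. It was 4.21-fold lower in PdB than in DMSO (-2.08 ± 0.076, adjusted p = 3.0e-14) and 2.92-fold lower at recovery (-1.54 ± 0.074, adjusted p = 3.4e-12), and the rise of 0.53 ± 0.076 between PdB and recovery left the recovery libraries well below DMSO. Its class IIb relative HDAC10, a polyamine deacetylase, rose under PdB, with 32.1 ± 0.24 CPM in PdB, 23.0 ± 0.76 CPM at recovery and 22.2 ± 1.0 CPM in DMSO (0.54 ± 0.072 under PdB, adjusted p = 2.4e-06; 0.049 ± 0.072 at recovery, adjusted p = 0.58). Exons of HDAC10 share 55.8% of their bases with MAPK12 on the same strand, so its values are uncertain. HDAC11, the class IV enzyme, removes long fatty acyl groups. It had 4.09 ± 0.56 CPM in PdB, 10.4 ± 0.97 CPM at recovery and 13.2 ± 1.2 CPM in DMSO, a change of -1.69 ± 0.13 under PdB (adjusted p = 1.4e-09). Its change of -0.35 ± 0.12 at recovery (adjusted p = 0.022) was lost with library totals (-0.27) and upper-quartile factors (-0.27) and without DMSO replicate 3 (-0.28), recovery replicate 1 (-0.29) or recovery replicate 2 (-0.32). The RefSeq promoter of HDAC6 is printed because HDAC6 and BRD2, shown further on, had the largest fall and the largest rise of the 32 genes at recovery against DMSO. It is the first listed of 3 starts, 300 bases of the + strand at chrX:48801817-48802116 in GRCh38.p14. Capitals mark GC boxes (GGGCGG or its complement CCGCCC) and CCAAT boxes (CCAAT or ATTGG).
HDAC6: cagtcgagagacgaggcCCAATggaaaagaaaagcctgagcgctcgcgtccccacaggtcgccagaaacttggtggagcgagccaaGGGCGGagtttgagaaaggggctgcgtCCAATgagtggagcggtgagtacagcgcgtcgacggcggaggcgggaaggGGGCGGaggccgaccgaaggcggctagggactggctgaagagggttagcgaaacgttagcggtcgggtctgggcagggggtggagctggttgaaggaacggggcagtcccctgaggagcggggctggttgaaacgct

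Of the 6 sirtuins, 3 rose and 2 fell under PdB, and 3 lay above and 3 below DMSO at recovery. Of all genes tested 32% rose and 38.2% fell under PdB, and 30.7% lay above and 30.5% below DMSO at recovery. Groups this small were not tested against these shares. SIRT1, a nuclear deacetylase of p53 and histones, had 55.98, 49.1 and 47.1 CPM in PdB, 44.3, 47.6 and 47.9 CPM at recovery, and 29.9, 29.5 and 30.5 CPM in DMSO. It rose by 0.76 ± 0.071 under PdB (adjusted p = 1.9e-08) and 0.64 ± 0.071 at recovery (adjusted p = 3.0e-07). Its libraries of PdB and recovery overlapped (-0.12 ± 0.070, adjusted p = 0.13, and 0.038 without PdB replicate 3, where the difference was -0.17). That difference was also called with DESeq2, RLE and upper-quartile scaling and the filter at a mean of 50 counts (-0.17 to -0.21, adjusted p from 0.012 to 0.038), and it was 0.15 by library totals (adjusted p = 0.063). SIRT6, a chromatin-bound sirtuin that takes part in DNA repair, had 30.4, 28.6 and 27.0 CPM in PdB, 59.7, 64.1 and 54.7 CPM at recovery, and 22.9, 25.2 and 26.7 CPM in DMSO. Its recovery libraries were 2.38-fold above DMSO (1.25 ± 0.079, adjusted p = 1.2e-10). The rise of SIRT6 under PdB was 0.20 ± 0.079 (adjusted p = 0.030), but 0.0043 with library totals, and it lost its call with no filter (adjusted p = 0.067) and without DMSO replicate 1 (0.14), DMSO replicate 2 (0.20), PdB replicate 1 (0.16), PdB replicate 2 (0.20) or recovery replicate 1 (0.19). SIRT7, the nucleolar sirtuin, rose by 0.47 ± 0.062 under PdB (adjusted p = 1.7e-06, 0.28 with library totals) and 0.92 ± 0.062 at recovery (adjusted p = 2.9e-10), with 54.4 ± 3.4 CPM in PdB, 74.3 ± 1.4 CPM at recovery and 39.2 ± 1.7 CPM in DMSO.

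SIRT2, a cytoplasmic sirtuin that also deacetylates tubulin, was lower at recovery than in both other groups. It had 38.3, 39.8 and 38.5 CPM in PdB, 19.9, 20.4 and 19.4 CPM at recovery, and 41.2, 37.2 and 36.2 CPM in DMSO. The PdB and DMSO libraries overlapped (0.026 ± 0.070, adjusted p = 0.76), though this value was -0.17 with library totals (adjusted p = 0.037) and 0.17 with upper-quartile factors (adjusted p = 0.036). The recovery libraries lay below all others, 1.92-fold under DMSO (-0.94 ± 0.071, adjusted p = 1.5e-09) and -0.97 ± 0.071 from PdB (adjusted p = 7.5e-10). The mitochondrial sirtuins SIRT3, a deacetylase, and SIRT5, which removes succinyl groups, were low and fell. SIRT3 had 7.37 ± 0.48 CPM in PdB, 8.54 ± 0.18 CPM at recovery and 13.1 ± 1.2 CPM in DMSO, changes of -0.83 ± 0.11 under PdB (adjusted p = 2.4e-06) and -0.62 ± 0.11 at recovery (adjusted p = 8.4e-05). Its difference of 0.21 ± 0.11 between recovery and PdB (adjusted p = 0.11) was called by library totals (0.48). SIRT3 shares 6.07% of its exon bases with PSMD13 on the opposite strand, which has 8256 counts on average against 610 for SIRT3, so its values are uncertain. SIRT5 had 1.08, 1.01 and 1.71 CPM in PdB, 3.83, 3.78 and 4.33 CPM at recovery, and 6.41, 6.88 and 8.12 CPM in DMSO. Its changes were -2.50 ± 0.21 under PdB (adjusted p = 3.4e-09) and -0.84 ± 0.19 at recovery (adjusted p = 0.00075), but 16.1% of its exon bases lie in an antisense gene, so both are uncertain.

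BRD2 had the highest level per kilobase of the 32 genes in every group, and both PdB and recovery libraries lay above DMSO. BRD2 (ENSG00000204256.14, chromosome 6, 32968660 to 32981505) had 797.0, 805.4 and 760.4 CPM in PdB, 893.6, 913.0 and 866.1 CPM at recovery, and 314.4, 309.4 and 311.8 CPM in DMSO. The DMSO libraries lay far below the others, with a change of 1.34 ± 0.042 under PdB (2.53-fold, adjusted p = 3.9e-15) and 1.51 ± 0.042 at recovery (2.86-fold, adjusted p = 7.4e-15). All recovery libraries were above all PdB libraries, by 0.18 ± 0.041 (adjusted p = 0.00091), a call lost with the filter at a mean of 50 counts (0.094, adjusted p = 0.056). BRD3 went the other way under PdB, with 39.4, 36.9 and 42.1 CPM in PdB, 74.7, 72.0 and 70.5 CPM at recovery, and 61.0, 58.3 and 58.7 CPM in DMSO. It fell under PdB (-0.59 ± 0.061, adjusted p = 7.4e-08) and lay above DMSO at recovery (0.29 ± 0.060, adjusted p = 0.00040). BRD3 shares 18.6% of its exon bases with BRD3OS on the opposite strand and its values are uncertain to that extent. The RefSeq promoter of BRD2, the first listed of 4 starts, covers the + strand of chr6:32968344-32968643 in GRCh38.p14, with capitals as for HDAC6.
BRD2: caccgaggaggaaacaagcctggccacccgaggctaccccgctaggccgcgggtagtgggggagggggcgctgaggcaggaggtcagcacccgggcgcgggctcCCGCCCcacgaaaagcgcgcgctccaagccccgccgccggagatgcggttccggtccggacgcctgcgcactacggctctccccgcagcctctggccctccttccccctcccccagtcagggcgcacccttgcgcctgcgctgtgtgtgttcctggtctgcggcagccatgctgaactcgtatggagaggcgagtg

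In these windows HDAC6 holds 2 GC boxes and 2 CCAAT boxes, and BRD2 holds 1 GC box and no CCAAT box. The motifs do not overlap each other. A promoter was found for 27 of the 32 genes, and 17 of these held a GC box on either strand, or 63.0%, against 44.6% of 27305 promoters in the table. A CCAAT box was found in 7, or 25.9%, against 35.7%. TATAAA or its complement TTTATA was found in 0 of the 27, against 3264 of the table's 27305 promoters. The 27 promoters were also richer in G and C, with a median of 69.3% of bases against 58.3% for the table. Their median count of CpG (C followed by G) was 30 against 14. The shares were not matched for base composition, and its part in them was not tested. Of the promoters of genes that rose under PdB, 7 of 10 held a GC box, and of those that fell 9 of 14. A match of letters is a description and not a site of binding.

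Per kilobase of annotated exon, BRD2 stood first in all groups, with 107.3 CPM per kb in PdB, 121.4 at recovery and 42.5 in DMSO. In PdB the next were KAT2A at 38.5, HDAC1 at 23.5, EP300 at 22.1 and KAT5 at 16.4 CPM per kb, and at recovery they were KAT2A at 33.3, KAT5 at 24.4, SIRT6 at 21.3 and HDAC3 at 17.8 CPM per kb. In DMSO the next were HDAC1 at 28.1, KAT2A at 24.4, HDAC3 at 16.4 and KAT5 at 14.4 CPM per kb. At recovery HDAC1, at 11.6 CPM per kb, stood below 8 of the other genes. HDAC8 and SIRT5 were the 2 lowest in each group, between 0.195 and 1.10 CPM per kb. Exon lengths were taken over all annotated transcripts, so the level per kb of genes with long rare exons, such as HDAC8 and KAT6B, is understated.

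Ratios between related genes in the same library do not depend on how libraries are scaled, and 7 pairs were compared. EP300 had 1.48 counts for each count of CREBBP in PdB (mean log2 ratio 0.57 ± 0.074), 0.708 at recovery (-0.50 ± 0.029) and 0.849 in DMSO (-0.24 ± 0.0058, SD, n = 3 each). The ratio was above 1 in all 3 PdB libraries and below 1 in the other 6. Per kilobase, EP300 and CREBBP had 22.1 and 12.03 CPM in PdB, 10.6 and 12.1 CPM at recovery, and 7.45 and 7.08 CPM in DMSO. KAT2A had 26.0 counts per count of KAT2B in PdB, 6.64 at recovery and 3.5 in DMSO. HDAC2 had 1.26 counts per count of HDAC1 in PdB, 4.49 at recovery and 1.38 in DMSO, so this ratio separated at recovery, with log2 ratios of HDAC1 to HDAC2 from -2.25 to -2.10 against -0.51 to -0.42 in DMSO. HDAC4 had 0.617 counts per count of HDAC5 in PdB, 0.272 at recovery and 1.41 in DMSO, and the PdB libraries spread widely (log2 ratios of -1.25, -0.66 and -0.18). The mean log2 ratio of BRD2 to BRD3 was 4.32 in PdB, 3.62 at recovery and 2.39 in DMSO. KAT6A had 4.26 counts per count of KAT6B in PdB, 3.57 at recovery and 2.55 in DMSO. HDAC7 and HDAC9 had a ratio of 3.08 in PdB, 3.05 at recovery and 3.15 in DMSO. Of the 21 differences between groups, 17 had p = 0.10 in a two-sided exact permutation test, the smallest value that 3 against 3 libraries allow (0.12 adjusted over the 21), so none could pass 0.05.

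**Figure D3:**
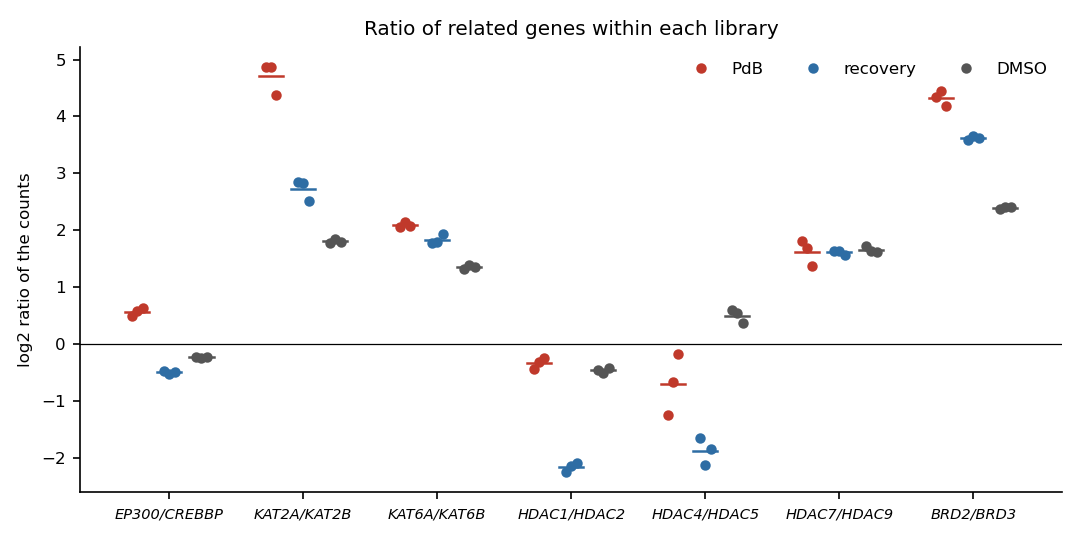
Log2 ratio of the counts of 2 related genes within each library, for PdB (red, left), recovery (blue, middle) and DMSO (grey, right), with lines at the means of 3 libraries. The ratio of EP300 to CREBBP is above 0 in the 3 PdB libraries alone, that of HDAC1 to HDAC2 is lowest at recovery with a mean of -2.17, and that of HDAC7 to HDAC9 lies between 1.36 and 1.81 in all 9 libraries.

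The change under PdB was set beside intron number, since the drug acts on splicing. Among 14226 protein-coding genes tested, introns of the longest transcript and the log2 change under PdB had a Spearman rho of -0.32, and over the 32 genes rho was 0.029. For coding genes with 11 to 20 introns the median change was -0.61, and 20.5% rose while 61.4% fell. For the 11 of the 32 genes in that class the median was 0.18, and 6 rose while 5 fell. With over 20 introns the median was -0.93 for 1594 coding genes and -0.61 for 9 of the 32, of which 3 rose and 6 fell. At recovery the medians in that class were -0.44 for all and 0.37 for the 9. With 3 to 10 introns the difference went the other way. Under PdB the median was -0.067 for coding genes and -0.17 for 12 of the 32, of which 3 rose and 6 fell. Among all coding genes of that class 37.2% rose and 40.8% fell. At recovery its medians were -0.016 for all and -0.13 for the 12. The points of such a correlation share libraries and are not independent. Counts per gene hold no measure of splicing itself or of which transcript was expressed, so the longest may misplace genes between classes. The difference from other genes was not tested.

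Subunits that work with these enzymes were counted by complex. Among 116 partner genes tested, 41 rose and 63 fell under PdB (median -0.24, and -0.11 for all genes), and 49 lay above and 40 below DMSO at recovery (medians 0.071 and 0.026). These are 35.3% and 54.3% under PdB, against 32% and 38.2% of all genes, and 42.2% and 34.5% at recovery, against 30.7% and 30.5%. The counts by complex that follow are to be read against the same shares of all genes. Of 16 SAGA and ATAC subunits, which carry KAT2A or KAT2B, 11 rose and 4 fell under PdB (median 0.51), and 9 were above and 5 below DMSO at recovery. ZZZ3, an ATAC subunit, had 258.2 ± 1.1 CPM in PdB against 68.3 ± 0.65 CPM in DMSO (1.92 ± 0.046), and SUPT20H, of SAGA, had 14.5 ± 1.7 CPM in PdB against 42.6 ± 1.8 CPM in DMSO (-1.56 ± 0.082). Of 16 subunits of MYST complexes, 11 rose and 5 fell under PdB (median 0.52). The largest rise was that of KANSL1, the scaffold of the NSL complex, at 1.66 ± 0.053, and the largest fall that of BRPF3, a partner of KAT7, at -1.09 ± 0.054. At recovery 11 were above DMSO and 1 below. Of 12 NuA4 subunits, the complex of KAT5, 5 rose and 7 fell under PdB, and 9 were above and 2 below DMSO at recovery. Its subunits EPC1 and BRD8 moved apart under PdB. EPC1 had 109.6 ± 6.5 CPM in PdB, 73.5 ± 2.2 CPM at recovery and 24.4 ± 1.8 CPM in DMSO (2.17 ± 0.067 under PdB). BRD8 had 19.8 ± 0.95 CPM in PdB, 148.7 ± 4.9 CPM at recovery and 89.6 ± 4.2 CPM in DMSO (-2.18 ± 0.060 under PdB).

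Of 15 SIN3 subunits, 2 rose and 10 fell under PdB (median -0.73), with SAP130 at -2.56 ± 0.077 and SAP18 at 1.53 ± 0.056. Of 10 NuRD subunits, 4 rose and 5 fell, and CHD4, the remodelling ATPase that shares the complex with HDAC1 and HDAC2, had 73.2 ± 4.9 CPM in PdB, 207.6 ± 3.9 CPM at recovery and 254.8 ± 6.2 CPM in DMSO. Of 13 genes listed with CoREST and MiDAC, 5 rose and 7 fell, with DNTTIP1 at -1.79 ± 0.074 and MIER3 at 0.93 ± 0.063. Of 6 genes listed with the NCoR complexes, which hold HDAC3, 1 rose and 5 fell, with ANKRD11 at 0.46 ± 0.047. Among 19 other bromodomain and YEATS readers tested, 2 rose and 13 fell (median -0.80), with ATAD2 at 37.3 ± 2.5 CPM in PdB, 200.1 ± 7.8 CPM at recovery and 280.4 ± 5.0 CPM in DMSO. At recovery the medians of the SIN3, NuRD, CoREST and MiDAC, NCoR and reader lists were 0.070, -0.17, 0.23, -0.043 and -0.19. Of 9 genes that supply acetyl-CoA or NAD, the substrates of acetyltransferases and sirtuins, 0 rose and 7 fell under PdB, and 2 were above and 6 below DMSO at recovery, where ACLY, the cytosolic source of acetyl-CoA, had 165.6 ± 5.1 CPM against 383.2 ± 5.4 CPM in DMSO (-1.21 ± 0.048, adjusted p = 3.1e-13). No difference between these lists was tested.

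**Figure D4:**
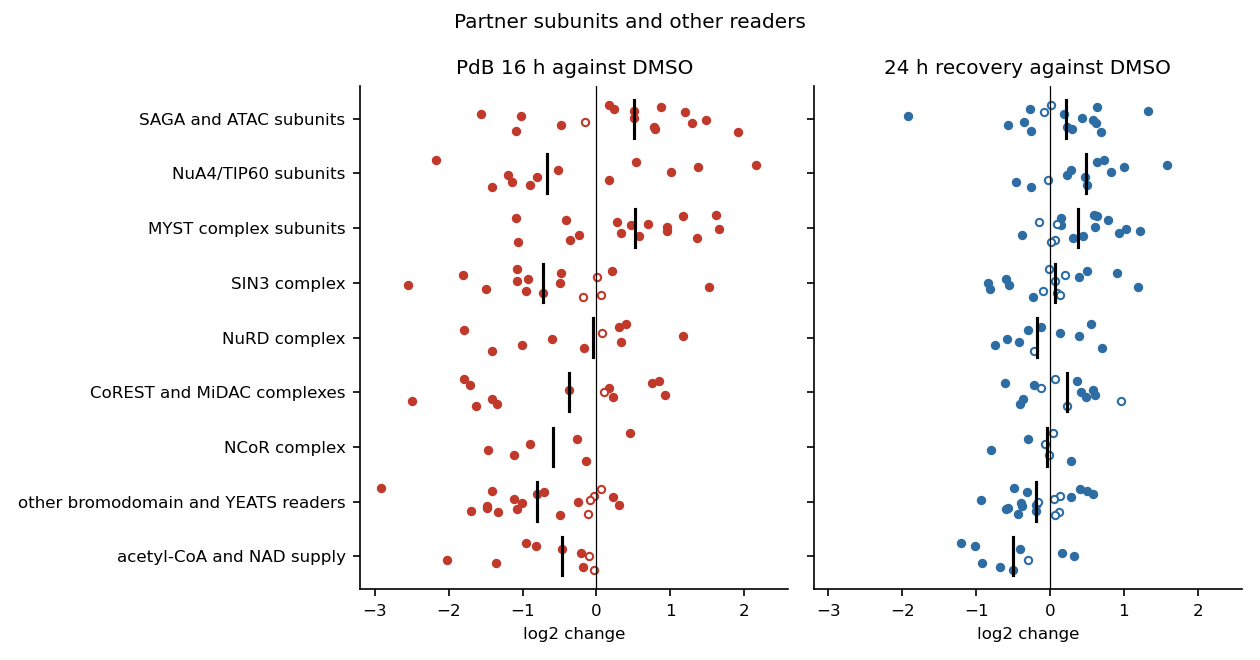
Log2 change of partner subunits, readers and substrate-supply genes for PdB against DMSO (left) and recovery against DMSO (right), 1 point per gene, with black bars at the medians and open points for an adjusted p of 0.05 or more. Under PdB the medians run from 0.52 for MYST complex subunits to -0.80 for other readers, and at recovery from 0.48 for NuA4 subunits to -0.51 for genes of acetyl-CoA and NAD supply.

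Over the 3 comparisons the 32 genes took different courses. The largest class fell under PdB and lay above DMSO at recovery, with 6 genes (KAT7, NCOA2, NCOA3, HDAC2, HDAC5 and BRD3), or 18.8%, against 6.44% of all genes tested. A further 5 rose under PdB and lay higher still at recovery (KAT5, HDAC9, SIRT6, SIRT7 and BRD2), or 15.6% against 3.04%. However, the rises of KAT5, HDAC9 and SIRT6 under PdB were small and lost their calls under some alternatives, as described above. The differences of HDAC9 and BRD2 between recovery and PdB also lost their calls under some. Of these 5 genes, SIRT7 alone kept its calls in all 3 comparisons under every alternative, so the share of this class is uncertain. Falls that had partly returned at recovery numbered 5 (KAT2B, HDAC4, HDAC6, HDAC11 and SIRT5), or 15.6% against 9.37%. Rises that had partly returned numbered 4 (EP300, KAT2A, KAT6A and KAT6B), or 12.5% against 9.46%. Another 4 fell and were no longer called at recovery (KAT8, NCOA1, HDAC3 and HDAC8), or 12.5% against 11.6%. HDAC1 was the 1 gene that fell under PdB and fell further afterwards, a course taken by 5.02% of all genes. SIRT3 fell and did not differ further between recovery and PdB by the test (5.77% of all genes), HDAC10 rose and was no longer called at recovery (8.33%), and CREBBP and SIRT1 rose and did not pass between recovery and PdB (6.24%). HDAC7 and SIRT2 were called at recovery and not under PdB (11%), and HAT1 at neither time (18.9%). These courses rest on calls, and at least 1 call changed under an alternative for KAT2A, KAT5, KAT8, HAT1, CREBBP, NCOA1, HDAC1, HDAC3, HDAC7, HDAC8, HDAC9, HDAC11, SIRT1, SIRT2, SIRT3, SIRT6 and BRD2.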

How the data were processed

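RNA was measured in 9 libraries of polyadenylated RNA made with the Universal Plus mRNA-Seq kit. The authors deposited 1 table of raw read counts, in whole numbers, with 60708 genes and no normalisation. The submitters' processing notes name hg38 and the tools featureCounts 2.0.3, STAR 2.7.9a, DESeq2 1.30.0, fastp 0.23.2 and Picard. The sources used here do not state which annotation was counted, whether strand was used or how reads in overlapping genes were treated. Coordinates, exons and introns came from GENCODE 29 (GRCh38), which held 58440 of the gene IDs, and promoter sequences from RefSeq (GRCh38.p14).

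Counts were filtered with filterByExpr (20812 genes left), scaled by TMM and tested two-sided with edgeR 4.0.16 in R 4.3.3 (quasi-likelihood test, all 9 libraries in the fit, Benjamini-Hochberg adjustment over all genes tested, threshold 0.05). The common biological coefficient of variation was 0.111. Libraries of a group differed by more than sampling noise (chi-square over its degrees of freedom from 4.98 to 26.0), so none was taken for a copy of another. The scripts were tested on simulated data. All 32 genes are described. Of each partner list the largest called rise and fall with a mean of at least 50 counts could be named. The members, lists and tests were chosen with earlier results of these data known. The 7 pairs of related genes were chosen after the changes of single genes had been seen.

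Groups share replicate numbers in the labels. Deviations of same-numbered libraries correlated with r of 0.12, 0.24 and 0.38 between PdB and recovery, which paired these by the rule used (over 0.1 in every pair). Between DMSO and PdB r was -0.039, 0.30 and 0.30, and between DMSO and recovery 0.082, 0.27 and 0.30, which did not. Some libraries of unlike number also passed 0.1, PdB replicate 1 with recovery replicate 2 (0.134) and PdB replicate 2 with recovery replicate 1 (0.115). The other unlike pairs of PdB and recovery had r from -0.29 to -0.19. The main tests did not use the pairing. Alternatives were other scalings, filters, DESeq2 1.42.0, a threshold of 0.01, only the 6 libraries compared, the replicate block, and leaving out each library. Figures were drawn with matplotlib 3.10.9 in Python 3.11.15. Some single partner and marker genes are not reported here.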

Additional observations from a re-analysis of the deposited data

How the results depend on the processing

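Of 96 values (32 genes in 3 comparisons), 74 kept their direction and their side of the threshold under all alternatives run. Numbers of the 32 genes called moved by less than 1.5 times in each comparison. Leaving out 1 library gave 9 to 13 rises and 16 to 17 falls under PdB, 18 to 19 and 7 to 8 at recovery against DMSO, and 19 to 21 and 6 to 8 between recovery and PdB. With library totals the median of all genes moved from -0.11 to -0.31 under PdB and from 0.062 to 0.33 between recovery and PdB, where calls split into 8862 up and 4876 down, against 7204 and 6563 with TMM. Directions turned for small values, among them called ones, KAT2A between recovery and PdB (-0.21) and KAT5 (0.19) and HDAC9 (0.18) under PdB. Library totals leave out the TMM factors, which were 0.88 to 0.92 in PdB, 1.02 to 1.03 in DMSO and 1.08 to 1.09 at recovery. The cause of single reversals was not tested. HAT1 under PdB (-0.088) was 0.00835 with DESeq2, 0.00831 with RLE factors, 0.035 with the filter at a mean of 50 counts and 0.062 with upper-quartile factors, and by library totals it was a called fall (-0.28, adjusted p = 0.00021). HAT1 at recovery against DMSO (-0.012) was 0.033 with DESeq2 and with RLE factors, 0.059 with library totals, 0.027 with that filter, 0.064 with upper-quartile factors and -0.0525 to 0.019 with 1 library left out, and between recovery and PdB (0.076) it was -0.00798 with that filter and a called rise by library totals (0.34, adjusted p = 3.3e-05). CREBBP between recovery and PdB (0.0070) was -0.0435 with DESeq2, -0.043 with RLE factors, -0.0766 with that filter, -0.068 with upper-quartile factors and -0.070 to 0.11 with 1 library left out. Library totals turned KAT2A (0.059) and SIRT1 (0.15) between recovery and PdB, and KAT5 (-0.013), HDAC7 (-0.048), HDAC9 (-0.0196) and SIRT2 (-0.17) under PdB. SIRT2 was also -0.00826 without a filter and -0.0234 to 0.0755 with 1 library left out. With the replicate block, 13 genes rose and 17 fell under PdB, 18 and 8 at recovery, and 21 and 7 between recovery and PdB. The block added HDAC7 under PdB (0.14, adjusted p = 0.029) and between recovery and PdB, and changed no other call. Depth is high for most of these genes, and SIRT5 has the fewest counts, 268 on average.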
